A study of Mus musculus with 47 samples.

Results

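The genes described here encode the subunits of voltage-gated sodium and calcium channels, and their transcript levels were followed in hypothalami of obese, leptin-deficient Lep ob/ob mice after intracerebroventricular (icv) injection of FGF1, fibroblast growth factor 1. Members were found by a rule on the symbol that uses no measured value, as rows of the count table named Scn with a number and a or b, Cacna1a to Cacna1i, or Cacna2d, Cacnb or Cacng with a number. A further L type pore gene of the table lies outside this range of letters and was not analysed here. This gave 34 of 14221 genes, of which 12 belong to sodium and 22 to calcium channels, and 16 encode pore subunits and 18 accessory subunits. Scn4a, Scn10a, Cacna1f, Cacng1 and Cacng6 had no row and were not analysed here.

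The libraries came from 47 male mice, 1 library per mouse, all of the Lep ob/ob genotype and labelled as 11 weeks old. Lep ob/ob mice make no functional leptin and are obese, and the study describes them as diabetic. No lean or leptin-sufficient mouse stood beside them, so every group carried the mutation. Mice received 3 µg of FGF1 or vehicle, vehicle-treated mice were pair-fed to the intake of FGF1-treated mice, and dissected hypothalamic tissue was taken on Day 1, 5 or 42 from separate mice. Day 1 had 10 FGF1-treated and 4 vehicle-treated mice, Day 5 had 9 FGF1-treated mice and 2 groups of 7 vehicle-treated mice labelled non-diabetic and diabetic, and Day 42 had 5 FGF1-treated and 5 vehicle-treated mice. The vehicle-treated mice of Days 1 and 42 are also labelled non-diabetic, which differs from the study's description. Labels of FGF1-treated mice give no such status, so whether it also differs between treatments is not known here. For Day 5 the study describes fewer vehicle-treated mice than the labels list, so which of the label groups served as its control is not known here, and each was compared on its own. Each day has its own preparation code, given to FGF1-treated and vehicle-treated mice alike, so day and preparation cannot be told apart. Nothing in the labels tells whether cages or litters were shared. The p-values measure the spread between these mice, which the main fit estimated from all 7 groups together.

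Voltage-gated sodium channels carry the rising phase of the action potential. Their pore is 1 large alpha protein, and small beta subunits with a single membrane span set its gating and its place in the membrane. Voltage-gated calcium channels turn that depolarization into calcium entry, which drives transmitter and hormone release, dendritic signalling and gene expression. Their pore proteins fall into the L type, the P/Q, N and R types of nerve terminals, and the T type, which opens near the resting potential and supports burst firing. An intracellular beta subunit and an extracellular alpha2delta subunit bring the P/Q, N, R and L type pores to the surface, and most gamma subunits act chiefly as partners of AMPA-type glutamate receptors. In the hypothalamus these channels pace the neurons that govern feeding and hormone release, and glial cells and vessels express some members as well.

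RefSeq promoter sequences (GRCm38.p6) were found for 25 of the 34 genes, in 36 windows of the 250 bases before an annotated start. The 3 shown here belong to genes of different role and direction on Day 1: Cacna2d1 (chr5:15934441-15934690, plus strand), whose transcript fell, Cacnb1 (chr11:98022628-98022877, minus strand), whose transcript rose, and Scn1a (chr2:66440838-66441087, minus strand), a sodium pore gene that fell. Capitals mark the GC box, GGGCGG on either strand, and each sequence reads 5′ to 3′ on the strand of its gene.
Cacna2d1: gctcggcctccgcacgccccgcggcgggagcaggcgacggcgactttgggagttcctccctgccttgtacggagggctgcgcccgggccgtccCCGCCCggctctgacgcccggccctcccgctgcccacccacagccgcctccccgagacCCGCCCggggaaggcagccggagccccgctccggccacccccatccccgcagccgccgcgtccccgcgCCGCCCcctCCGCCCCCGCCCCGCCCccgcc
Cacnb1: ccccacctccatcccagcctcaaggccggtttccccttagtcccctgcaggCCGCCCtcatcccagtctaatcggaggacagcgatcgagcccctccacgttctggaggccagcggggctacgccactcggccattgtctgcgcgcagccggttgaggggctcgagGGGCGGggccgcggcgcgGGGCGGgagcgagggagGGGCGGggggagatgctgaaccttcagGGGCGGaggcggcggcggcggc
Scn1a: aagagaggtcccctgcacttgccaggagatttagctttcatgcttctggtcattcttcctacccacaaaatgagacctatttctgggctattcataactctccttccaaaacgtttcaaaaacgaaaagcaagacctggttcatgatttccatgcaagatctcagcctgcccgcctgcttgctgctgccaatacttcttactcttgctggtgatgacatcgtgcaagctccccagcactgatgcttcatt
The Cacna2d1 window held 6 GC boxes at 82.4% G and C, the Cacnb1 window shown held 5 at 73.2%, and the Scn1a window held none at 46.8%, against a median of 52.4% G and C over all windows. A second Cacnb1 window, at chr11:98018373-98018622, held none at 56.0%. The GC box stood in 36.1% of the channel gene windows and in 32.7% of all 32851 windows. The CRE (TGACGTCA) stood in 0 of the 36 channel gene windows and in 1.55% of all, AP-1 (TGANTCA) in 2.78% and 6.75%, and the ETS motif (CCGGAAG) in 0 and in 6.91%, each searched on both strands. None of these motifs contains another. These matches are descriptions of letters and not of binding.

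Depth ran from 1243280 to 47082403 counts per library. FGF1-treated replicate 1 of Day 1 had the lowest total, where the median of its group was 33965099.5, and the Day 5 libraries held between 7579695 and 30009258 counts. A normalized count is here in CPM, a count scaled to the size of its library, after correction by TMM, the edgeR method for differences in composition. Of the 10 hypothalamus markers (Hcrt, Pmch, Avp, Agrp, Pomc and others), none was at 0 in every library of a group, and their summed level ran from 1059.6 to 1472.1 CPM in vehicle-treated mice of Day 1. Among the 4 vehicle-treated mice of Day 1, replicate 2 was the highest for 12 and the lowest for 14 of the 34 channel genes, and replicate 4 the highest for 18 and the lowest for 7. A library stood apart on Day 42, where FGF1-treated replicate 5 held 757.1 CPM of summed cortex and striatum markers, against 55.5 to 155.7 CPM in the other 9 mice of that day.

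Levels were first compared per length, on the scale of CPM per kilobase of exon. Among sodium accessory genes Scn2b was high in vehicle-treated mice, at 59.8 ± 7.0 (SD, n = 4) on Day 1, 72.2 ± 1.7 (n = 7, labelled non-diabetic) on Day 5 and 73.0 ± 11 (n = 5) on Day 42. The highest sodium pore was Scn2a, the main pore of the axon of excitatory neurons, at 18.7 ± 2.5, 42.6 ± 2.6 and 34.05 ± 9.1 CPM per kilobase. Scn11a, a pore known from sensory neurons, was the lowest of the sodium genes, at 0.273 ± 0.088, 0.294 ± 0.098 and 0.204 ± 0.086.

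Among calcium pores, Cacna1b, the N type pore of nerve terminals, was highest of the P/Q, N and R group at 19.0 ± 0.46, 15.8 ± 1.2 and 18.7 ± 1.2 CPM per kilobase on Days 1, 5 and 42. Cacna1g was the highest T type pore at 9.34 ± 2.4, 10.8 ± 1.6 and 13.1 ± 2.6. The L type pores Cacna1c and Cacna1d changed order between days. Cacna1d stood above Cacna1c on Day 1, at 6.06 ± 0.48 against 4.04 ± 0.24, and below it on Day 5, at 4.62 ± 0.28 against 5.76 ± 0.80, whereas on Day 42 the values of 6.18 ± 0.56 and 5.75 ± 0.97 differed by less than their SD.

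Of the calcium accessory genes, Cacng7, a gamma subunit, was highest per length on Days 1 and 42, at 38.1 ± 8.6 and 47.1 ± 11 CPM per kilobase, with 18.7 ± 0.88 on Day 5. Cacna2d2 was the highest alpha2delta subunit on Day 1, at 24.6 ± 3.4 against 20.4 ± 5.4 for Cacna2d1, and Cacna2d1 on Day 5, at 21.3 ± 1.3 against 12.4 ± 1.1. Among beta subunits Cacnb3 led on Day 1 at 18.9 ± 4.8, and Cacnb4 on Day 5 at 20.3 ± 0.61. Cacna2d4, an alpha2delta subunit known from the retina, was the lowest calcium channel gene on Day 1 at 0.493 ± 0.082. Per kilobase of the longest transcript in place of all exons, the leading gene changed in several classes. Cacna1e stood above Cacna1b on Days 1, 5 and 42 (20.3 against 19.4, 25.3 against 16.2, and 21.6 against 19.1), Cacna1c above Cacna1d on Day 42 (9.26 against 8.07), Cacnb2 above Cacnb4 on Day 5 (26.8 against 22.1), and Cacna2d1 above Cacna2d2 on Day 1 (34.1 against 33.7).

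**Figure D1:**
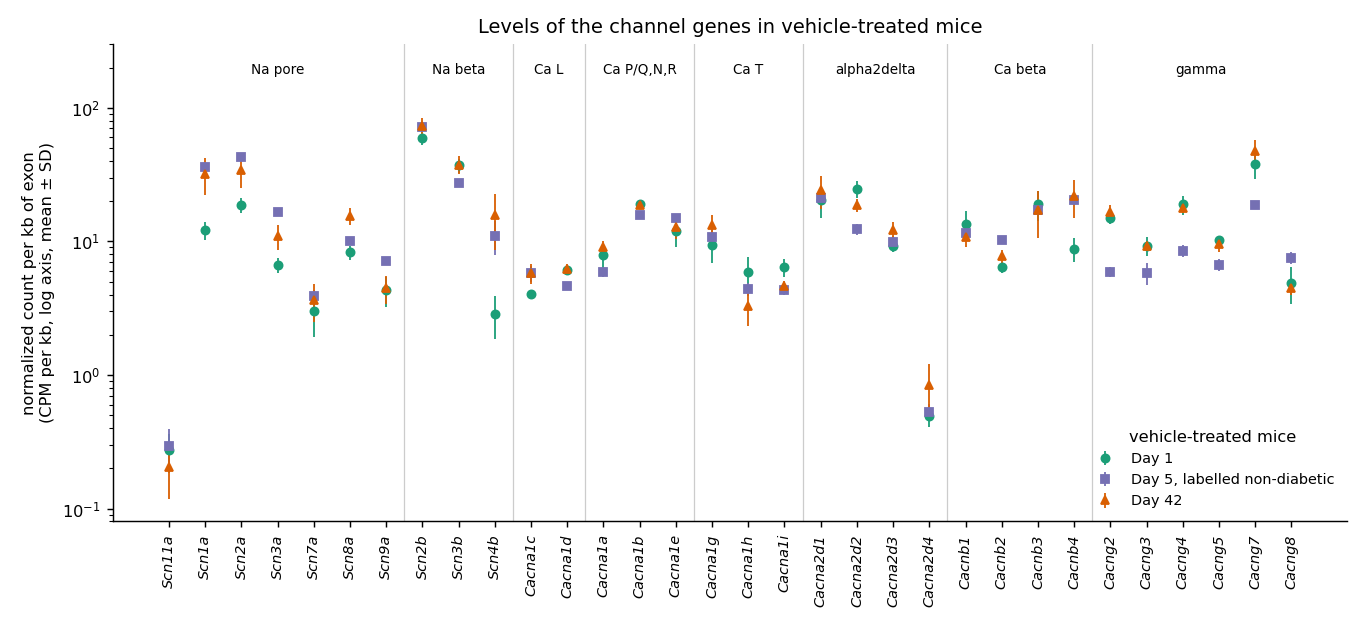
Mean normalized count per kilobase of exon (CPM per kilobase, log axis, with bars of 1 SD) of channel genes in the vehicle-treated groups of Days 1, 5 (labelled non-diabetic) and 42, grouped by subunit class. Scn2b lies highest of the genes shown, and Scn11a and Cacna2d4 lie lowest, on each day.

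On Day 1, FGF1-treated mice had lower levels of both L type pores, of the N and R type pores Cacna1b and Cacna1e, of the sodium pores Scn1a, Scn3a and Scn7a, and of the accessory genes Cacna2d1, Cacna2d4, Cacnb2 and Scn3b. Cacng8, Cacng5, Cacnb1, Cacna1h and Scn11a were higher. In all, 16 of 34 genes passed at an adjusted p under 0.05, 11 lower and 5 higher, where 45.0% of all genes passed, 21.6% lower and 23.4% higher. The share of channel genes that passed was thus near that of all genes. With DESeq2 size factors in place of TMM, 16 of 34 passed again, 12 lower and 4 higher, where 26.3% of all genes were lower and 19.8% higher. By the DEG threshold, which also asks for an absolute log2 fold change above 0.5, 4 of the 34 passed, against 19.5% of all genes. The median log2 fold change of the channel genes was -0.09, and that of all genes 0.01. These medians were -0.15 and 0.01 without vehicle replicate 2, -0.05 and 0.02 without replicate 4, and -0.14 and -0.04 with DESeq2 size factors.

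Pore and accessory genes were counted apart. Among 16 pore genes 7 fell and 2 rose, with a median log2 fold change of -0.16, and among 18 accessory genes 4 fell and 3 rose, with a median of -0.05. Only 1 pore gene (Scn11a) was a DEG, and 3 accessory genes were (Cacna2d4, Cacna2d1 and Cacng8). Cacna2d1 was no longer a DEG without vehicle replicate 2, at a log2 fold change of -0.39, and Cacng8 was at 0.503, just above the threshold. With FGF1 the summed level per kilobase of the pores was 114.9 ± 6.43 (SD, n = 10), and with vehicle it was 126.8 ± 2.67 (n = 4), and the ratio of accessory to pore levels ran from 2.60 to 3.43 and from 2.38 to 3.05, so that the groups overlapped in this ratio. The difference between pore and accessory genes was not tested. Without vehicle replicate 2, 3 pore genes fell and 1 rose, and 5 accessory genes fell and 2 rose, where 16.0% of all genes fell and 19.2% rose. The medians were then -0.15 for pore and -0.16 for accessory genes, so the difference in medians rested on that mouse. By ion, 4 of 12 sodium channel genes fell and 1 rose, and 7 of 22 calcium channel genes fell and 4 rose. Without vehicle replicate 2 the sodium counts were 1 lower and 1 higher, and the calcium counts 7 lower and 2 higher.

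**Figure D2:**
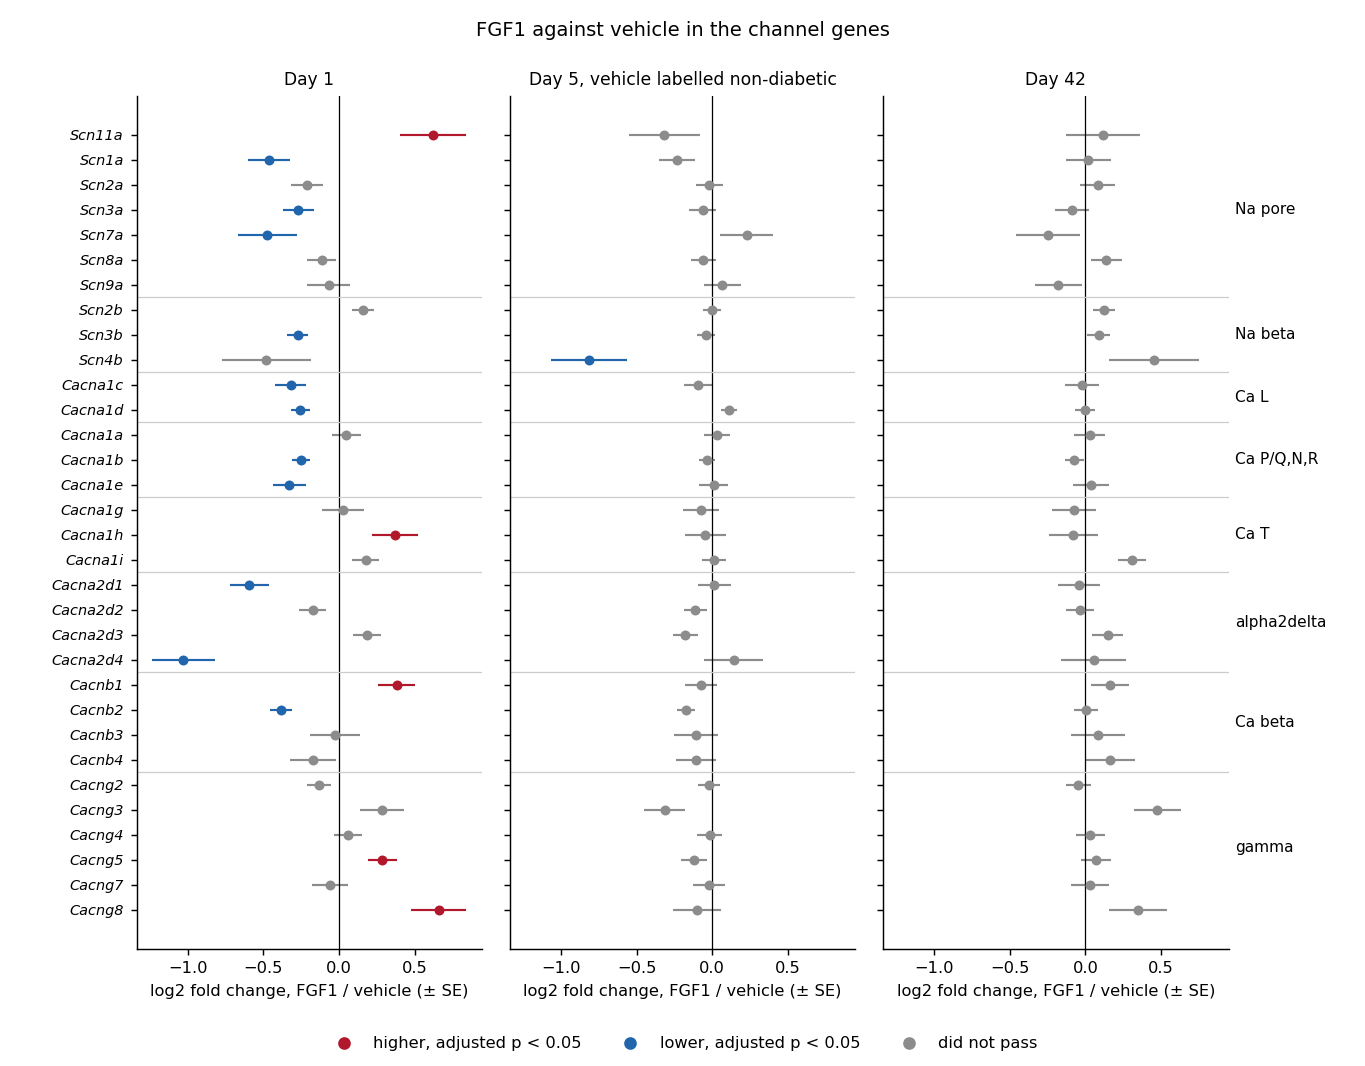
Log2 fold change of FGF1 against vehicle (horizontal axis) for channel genes on Days 1, 5 (vehicle labelled non-diabetic) and 42, ordered by subunit class, with bars of 1 standard error. Red and blue points are genes that were higher and lower at an adjusted p under 0.05, and grey points did not pass. Day 1 has 16 coloured points, Day 5 has 1 (Scn4b), and Day 42 has none.

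Among sodium pores, Scn1a, the pore of many inhibitory neurons, fell. Its level in FGF1-treated mice ran from 72.9 through a median of 96.8 to 152 CPM, and the 4 vehicle-treated mice had 113, 127, 136 and 161 CPM. The highest FGF1-treated value came from replicate 1, the library with the fewest counts, and 7 of 10 FGF1-treated mice lay below all vehicle-treated mice. The log2 fold change was -0.46 (SE 0.14, adjusted p = 0.00588, exact permutation p = 0.024). It was -0.36 (adjusted p = 0.0559) without vehicle replicate 2 and not called.

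Scn3a, a pore most prominent in the developing brain, ran from 52.4 through 66.8 to 99.4 CPM with FGF1 and was 72.7, 77.8, 84.7 and 97.2 CPM with vehicle. The groups overlapped, and the log2 fold change was -0.27 (SE 0.10, adjusted p = 0.0301, exact permutation p = 0.106). Scn7a encodes a sodium-level sensor of glia in the organs around the ventricles, and its level ran from 6.60 through 16.1 to 24.0 CPM with FGF1, against 14.03, 20.1, 21.4 and 33.5 CPM with vehicle. It lay just inside the threshold, with a log2 fold change of -0.47 (SE 0.20, adjusted p = 0.0445, exact permutation p = 0.167), and 3 of 10 FGF1-treated mice were below all vehicle-treated mice. Both calls were lost without vehicle replicate 1, and without vehicle replicate 2, where the log2 fold changes were -0.19 for Scn3a and -0.21 for Scn7a.

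Scn11a rose from a very low level. FGF1-treated mice had 0.815 to 3.39 CPM with a median of 2.42, and vehicle-treated mice had 0.985, 1.43, 1.88 and 2.17 CPM. The lowest value rests on 1 count in the shallow replicate 1, and 8 of 10 FGF1-treated mice stood above every vehicle-treated mouse. The log2 fold change was 0.62 (SE 0.22, adjusted p = 0.019, exact permutation p = 0.0969), and it no longer passed without vehicle replicate 1 or 4. Scn2a, Scn8a and Scn9a did not pass, and Scn2a had a log2 fold change of -0.21 (adjusted p = 0.104). Scn3a, Scn2a, Scn1a, Scn9a and Scn7a lie in 1 cluster on chromosome 2, between 65457118 and 66784914 in GRCm38, and 3 of these 5 neighbours fell, where 21.6% of all genes did. Without vehicle replicate 2 none of the 5 was called.

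Of the sodium beta subunits only Scn3b passed. It ran from 149.8 through 162 to 196 CPM with FGF1 and was 180.5, 185, 209 and 233 CPM with vehicle, with 8 of 10 FGF1-treated mice below all vehicle-treated mice. The log2 fold change was -0.27 (SE 0.07, adjusted p = 0.00162, exact permutation p = 0.00699). Scn2b, a beta subunit linked to the pore by a disulfide bond, lay just outside the threshold at 0.16 (SE 0.07, adjusted p = 0.0597), with 269.7 to 338 CPM against 252, 258, 280.4 and 324 CPM, and it passed without vehicle replicate 4, at 0.24 (adjusted p = 0.00814). Scn4b, a beta subunit abundant in striatal neurons, was at -0.48 (SE 0.29, adjusted p = 0.182) and did not pass. It was at -0.27 without vehicle replicate 4 and at -0.66 without replicate 1, and passed in neither.

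Both L type members of the 34 were lower in every FGF1-treated mouse than in any vehicle-treated mouse. Cacna1d, the L type pore that opens at more negative potentials and paces neurons, ran from 60.8 through 63.5 to 68.2 CPM with FGF1 and was 70.8, 74.6, 75.5 and 85.0 CPM with vehicle. Cacna1c ran from 57.0 through 69.6 to 73.4 CPM and was 81.0, 82.5, 86.3 and 92.6 CPM with vehicle. The log2 fold changes were -0.25 (SE 0.06, adjusted p = 0.000801) for Cacna1d and -0.32 (SE 0.10, adjusted p = 0.01) for Cacna1c. Both reached the exact permutation p of 0.000999, the smallest that 1001 regroupings can give. The call of Cacna1c was lost with sample quality weights and with libraries thinned to one total.

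Cacna1b was likewise lower in all 10 FGF1-treated mice, at 146 through 160.1 to 171 CPM against 184, 187, 191 and 194 CPM. Its log2 fold change was -0.25 (SE 0.06, adjusted p = 0.000648, exact permutation p = 0.000999). Cacna1b and both L type pores, with Cacnb2, were the 4 of 34 channel genes with every FGF1-treated mouse below every vehicle-treated mouse, where 6.81% of all genes were so separated. Cacna1e, the R type pore, ran from 200.1 through 234 to 289.6 CPM with FGF1 and was 250.1, 265, 285 and 409.8 CPM with vehicle. Its log2 fold change of -0.33 (SE 0.11, adjusted p = 0.0139, exact permutation p = 0.033) was -0.15 (adjusted p = 0.326) without vehicle replicate 2, the highest of the 4, and was no longer called. Cacna1a, the P/Q type pore, was at 0.05 and did not pass.

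Of the T type pores, Cacna1h rose, from vehicle levels of 36.4, 54.5, 64.0 and 75.7 CPM to 50.3 through 75.8 to 94.2 CPM. The groups overlapped, with 6 of 10 FGF1-treated mice above all vehicle-treated mice. The log2 fold change was 0.37 (SE 0.15, adjusted p = 0.0423, exact permutation p = 0.0589), and the call was lost under 7 of 13 alternatives, among them DESeq2 and the fit without vehicle replicate 2, the lowest of the 4, which gave 0.21. Cacna1i, at 0.18 (adjusted p = 0.1), and Cacna1g, at 0.03, did not pass. Without vehicle replicate 2 they were at 0.07 and -0.14.

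The largest falls of the 34 genes were in a pair of alpha2delta subunits. Cacna2d4 (chr6:119236526-119352407) ran from 1.48 through 2.41 to 4.07 CPM with FGF1 and was 3.54, 4.83, 5.03 and 5.31 CPM with vehicle. Its log2 fold change was -1.03 (SE 0.21, adjusted p = 6.73e-05, exact permutation p = 0.002), and 9 of 10 FGF1-treated mice lay below all vehicle-treated mice. The exception was replicate 1, whose value rests on 5 counts.

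Cacna2d1 (chr5:15934691-16374511), an alpha2delta subunit bound by gabapentin, ran from 117 through 167 to 213 CPM with FGF1 and was 207, 214, 242 and 352 CPM with vehicle. The log2 fold change was -0.59 (SE 0.13, adjusted p = 0.000159, exact permutation p = 0.00599), with 9 of 10 FGF1-treated mice below all vehicle-treated mice. With vehicle replicate 2, the mouse at 352 CPM, left out, it was -0.39 (SE 0.13, adjusted p = 0.0138). Its GC-rich promoter is the first of the 3 sequences above. Cacna2d2, at -0.17 (adjusted p = 0.103; -0.26 and called without vehicle replicate 2), and Cacna2d3, at 0.19 (adjusted p = 0.106), did not pass.

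The intracellular beta subunits moved apart. Cacnb2 (chr2:14603088-14987908) ran from 58.1 through 65.0 to 74.9 CPM with FGF1 and was 76.6, 82.1, 83.4 and 95.6 CPM with vehicle, with no overlap. It had the smallest adjusted p of the 34 genes, with a log2 fold change of -0.38 (SE 0.07, adjusted p = 1.97e-05, exact permutation p = 0.000999). Cacnb1, the beta subunit best known from skeletal muscle, ran from 59.5 through 80.5 to 105 CPM with FGF1 and was 42.6, 57.2, 66.5 and 78.6 CPM with vehicle. Its log2 fold change was 0.38 (SE 0.12, adjusted p = 0.00859, exact permutation p = 0.036), 5 of 10 FGF1-treated mice were above all vehicle-treated mice, and without vehicle replicate 2 it was 0.24 (adjusted p = 0.12) and no longer called. Cacnb3 and Cacnb4 did not pass.

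Of 6 gamma genes 2 rose. Cacng8 (chr7:3390683-3415648), an AMPA receptor partner, was 7.51, 9.61, 14.3 and 14.5 CPM with vehicle and ran from 12.1 through 19.5 to 25.2 CPM with FGF1, for a log2 fold change of 0.66 (SE 0.18, adjusted p = 0.00272, exact permutation p = 0.017). Its exons overlap those of Gm23450 on the same strand, so that reads of the pair could not be told apart. Cacng5 was 36.8, 38.7, 39.7 and 42.0 CPM with vehicle and ran from 40.7 through 49.4 to 54.6 CPM with FGF1, with 9 of 10 FGF1-treated mice above all vehicle-treated mice. Its log2 fold change was 0.29 (SE 0.09, adjusted p = 0.0104, exact permutation p = 0.002). Over 13 alternatives the log2 fold change of Cacng5 ran from 0.07 to 0.32. The call was lost under 1 of them, with thinned libraries (adjusted p = 0.72). The other 4 gamma genes did not pass, and among them Cacng3 was at 0.29 (adjusted p = 0.104), and at 0.40 (adjusted p = 0.0382) without vehicle replicate 4.

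**Figure D3:**
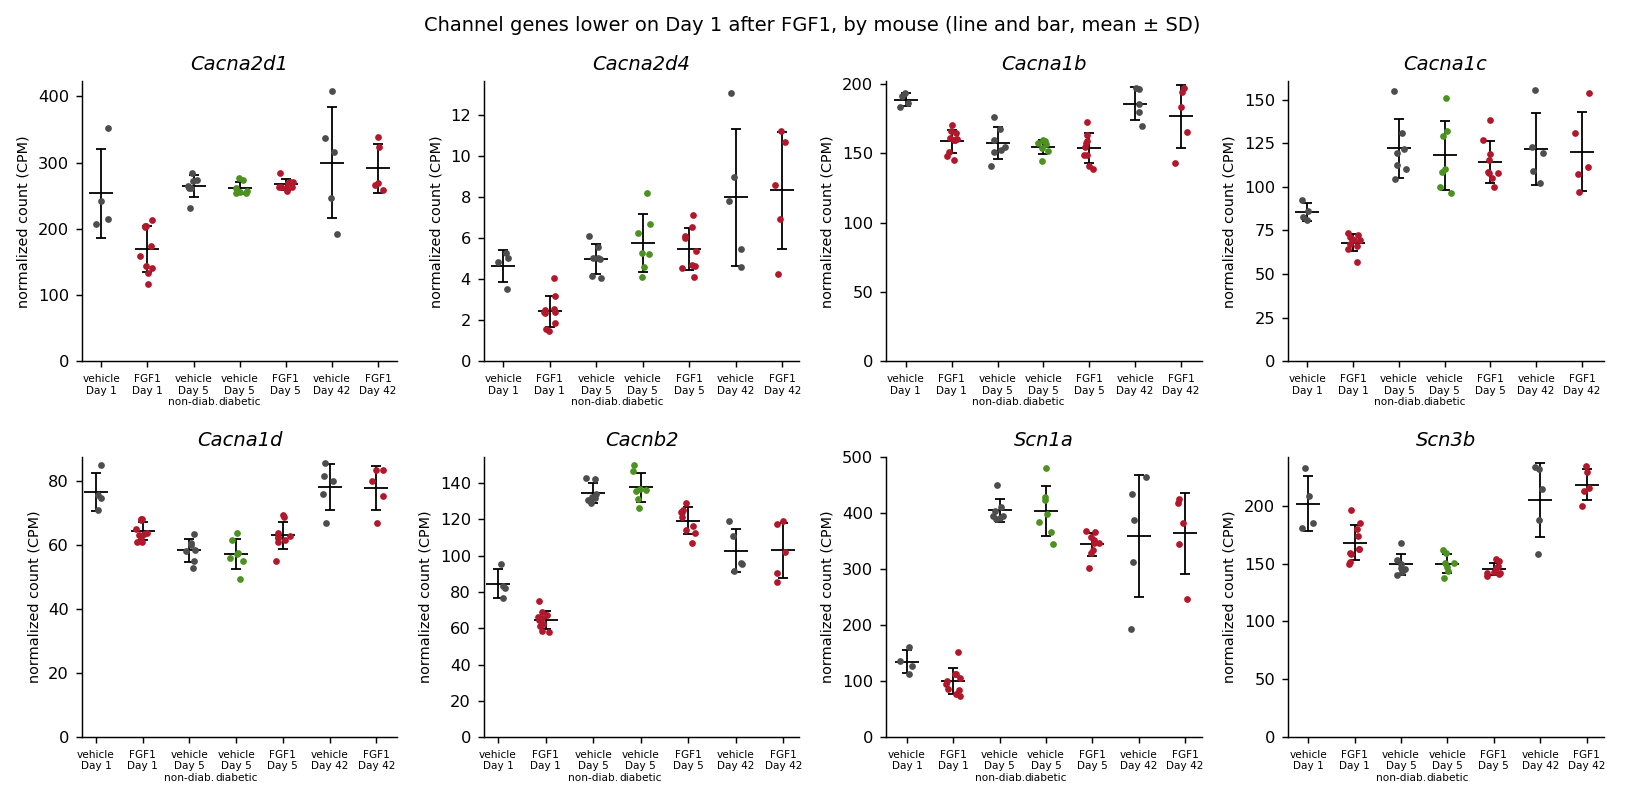
Normalized counts (CPM, axes from 0) of each mouse in the 7 groups for 8 channel genes that were lower on Day 1, 1 panel per gene, with red points for FGF1, dark grey for vehicle, green for vehicle labelled diabetic, and a line and bar for the mean ± SD. On Day 1 no FGF1-treated mouse reached the lowest vehicle-treated mouse for Cacnb2, Cacna1b, Cacna1d and Cacna1c, and on Day 42 the groups overlap in each panel.

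**Figure D4:**
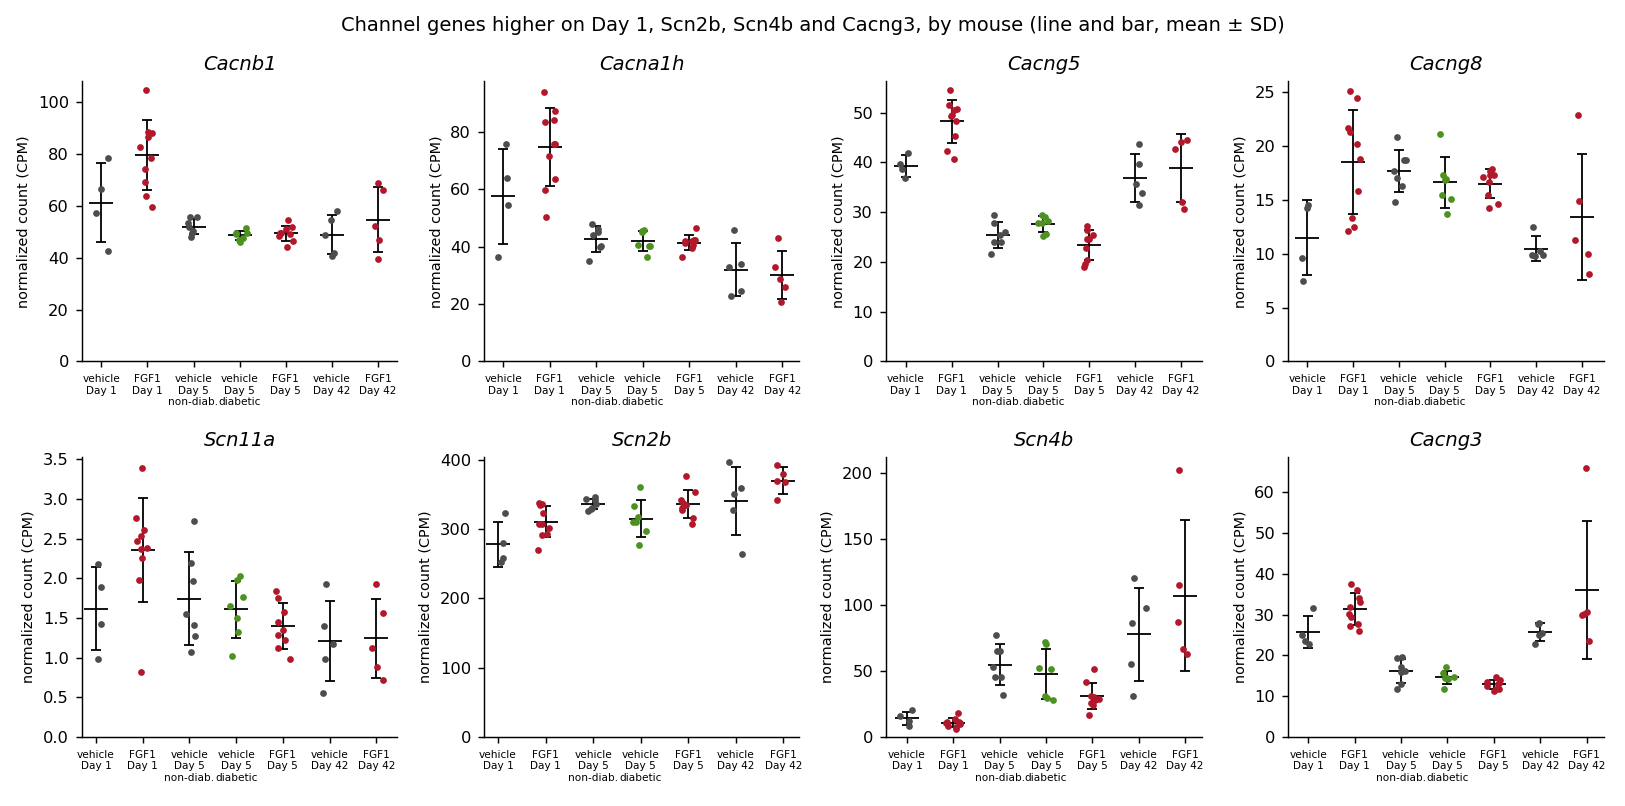
Normalized counts (CPM, axes from 0) of each mouse in the 7 groups for the 5 channel genes that were higher on Day 1, for Scn2b, which lay just outside the threshold, and for Scn4b and Cacng3, with colours and bars (mean ± SD) by treatment, red for FGF1, dark grey for vehicle and green for vehicle labelled diabetic. On Day 1 the groups overlap in every panel, with 9 of 10 FGF1-treated mice above all vehicle-treated mice for Cacng5, and 1 FGF1-treated mouse of Day 42 lies at 66.0 CPM for Cacng3.

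The count on Day 1 fell from 16 to 11 of 34 both without vehicle replicate 2 and with libraries thinned to one total, and the share of all genes called fell with it, from 45.0% to 35.2% and 33.0%. Without that mouse, 10 of the 11 were among the 16, Cacna1e, Cacna1h, Cacnb1, Scn1a, Scn3a and Scn7a dropped out and Cacna2d2 came in. Cacna1b, Cacna1d, Cacna2d1, Cacna2d4, Cacnb2, Cacng8 and Scn3b were called on Day 1 under every alternative that tested them at the adjusted p alone. With thinned libraries, Cacna1c, Cacna1h, Cacnb1, Cacng5 and Scn11a were not called, and Cacna1h was not called without vehicle replicate 3 either. Of the channel genes called, 31.25% were higher, but 9.09% were after thinning, where of all genes called the shares were 51.9% and 47.5%. With each day fitted alone 12 channel genes were called on Day 1, 3 of them higher, where 33.4% of the 14019 genes tested were called.

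Cell type markers were read beside these genes on Day 1, when 45.0% of all genes passed, 21.6% lower and 23.4% higher. Of single genes, 6.81% had every FGF1-treated mouse below every vehicle-treated mouse. Of 10 neuron markers 3 fell and none rose, and their summed level ran from 4893.5 to 5992.5 CPM with FGF1 and from 5873.0 to 6903.0 CPM with vehicle. Of 7 mature oligodendrocyte markers 6 fell (2248.1 to 4080.4 CPM against 3583.3 to 5247.1 CPM), and of 8 microglia markers 6 rose and 1 fell (261.0 to 353.7 CPM against 221.3 to 255.6 CPM). All 8 astrocyte markers passed, 3 higher and 5 lower (4814.8 to 5851.7 CPM against 4417.9 to 5071.8 CPM). Among 10 hypothalamus markers 2 rose and 1 fell, 7 had a log2 fold change below 0, and their sum was 679.1 to 1109.8 CPM with FGF1 and 1059.6 to 1472.1 CPM with vehicle. The microglia sums did not overlap between the groups, nor did those of tanycyte (43.2 to 82.8 CPM against 86.7 to 117.0 CPM), ependymal (32.7 to 57.3 CPM against 60.7 to 84.5 CPM), choroid plexus (20.96 to 38.4 CPM against 45.4 to 58.5 CPM) and cortex and striatum markers (39.5 to 52.2 CPM against 55.1 to 64.8 CPM), the last 4 with lower sums with FGF1. Their members did not all go that way, since 1 of 4 tanycyte markers rose and 2 fell (median log2 fold change 0.27), 3 of 5 ependymal and 2 of 4 choroid plexus markers fell and none rose, and 1 of 6 cortex and striatum markers rose and 1 fell (median 0.23). No list had a marker at 0 in a whole group, and the part of these shifts in the channel results was not tested. In a whole tissue, fewer cells of a type and less RNA per cell cannot be told apart. The channel genes were also read through overlapping genes in places, since 9 of the 34 share exon positions with a gene on the other strand, Cacna1d, Cacna1h and Cacnb2 among them, and whether counting used strand is not given in the sources used here.

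Fold changes on Day 1 were also set beside the span of each gene. Of 8 channel genes that span over 200 kb, 5 fell and none rose on Day 1, with a median log2 fold change of -0.29. Of 26 that span up to 200 kb, 6 fell and 5 rose, with a median of -0.05. Among all genes whose span was found, 42.9% of the 940 over 200 kb fell, with a median of -0.20, and 20.1% of the 13221 up to 200 kb fell, with a median of 0.02. Cacna1c spans 609 kb and Cacna1e 494 kb, and both fell. Cacna2d3, the longest at 817 kb, was at 0.19 and did not pass. The highest log2 fold changes belonged to Cacng8, at 24.97 kb, and Scn11a, at 71.7 kb.

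**Figure D5:**
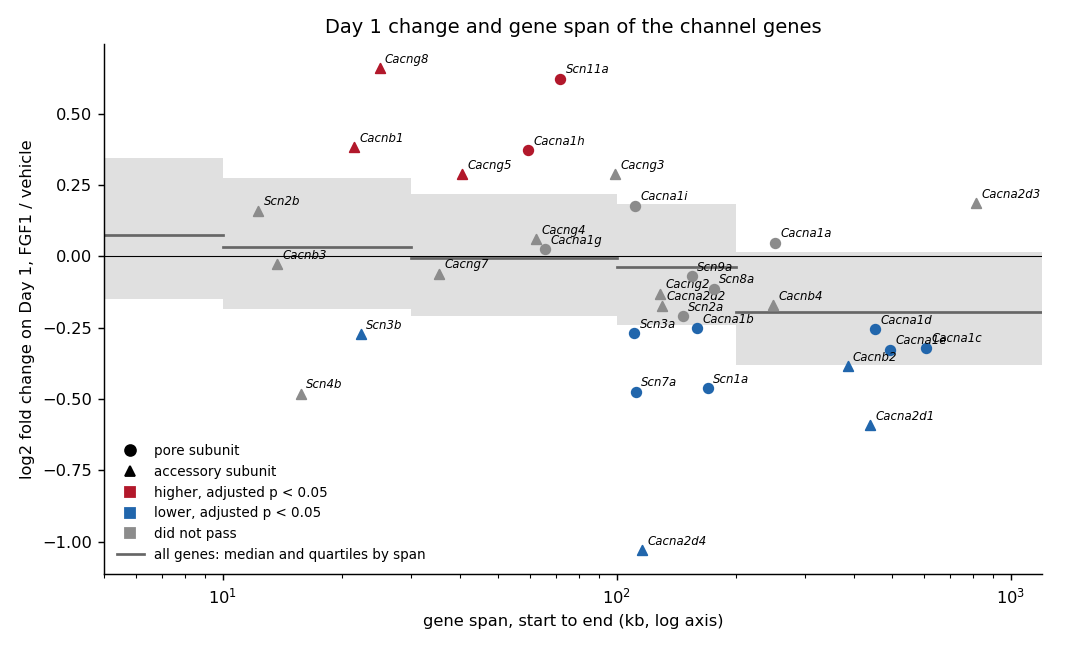
Log2 fold change of FGF1 against vehicle on Day 1 (vertical axis) against the span of the gene from start to end in kilobases (log axis), with circles for pore and triangles for accessory genes, red for higher, blue for lower and grey for genes that did not pass. Lines and grey bands give the median and quartiles of all genes whose span was found, in 5 span classes. The all-gene median is 0.07 for genes up to 10 kb and -0.20 for genes over 200 kb, and 5 of the 8 channel genes over 200 kb fell.

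Partner genes were read from lists of proteins that bind or modulate these channels. The sodium list (ankyrins, intracellular FGFs and others) also held Nalcn, Unc79, Unc80 and Fam155a of the sodium leak channel, a separate channel, which were not counted apart. Of the 17 genes on this list 10 fell and none rose on Day 1, with a median log2 fold change of -0.25, where 21.6% of all genes fell and 23.4% rose. Without vehicle replicate 2, 6 of the 17 fell and none rose, where 16.0% of all genes fell. The spans of these partner genes were not compared, and of the 940 genes found to span over 200 kb 42.9% fell on Day 1. One was a DEG, Fgf14, an intracellular FGF that binds the tail of the sodium pore, at -0.55 (SE 0.11, adjusted p = 2.81e-05). Of 20 calcium channel partners 4 fell and 3 rose, with a median of 0.02. The DEGs were Thbs1, a ligand of alpha2delta subunits, at 1.28, Rrad, a small GTPase that restrains L type channels, at 1.18, Stx1a, the presynaptic syntaxin, at 0.57, and Rims2, an active zone scaffold, at -0.55.

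On Day 5, 1 of 34 channel genes passed against vehicle-treated mice labelled non-diabetic, where 4.65% of all genes passed. This was Scn4b, also the single channel gene among the DEGs, which were 1.54% of all genes. Scn4b ran from 16.8 through a median of 29.2 to 51.8 CPM with FGF1, from 31.8 through 53.4 to 77.4 CPM in mice labelled non-diabetic and from 28.2 through 51.5 to 72.1 CPM in mice labelled diabetic. Its log2 fold change was -0.81 (SE 0.25, adjusted p = 0.0477, exact permutation p = 0.00306), and 7 of 9 FGF1-treated mice lay below all mice labelled non-diabetic. Against mice labelled diabetic it was -0.62 (adjusted p = 0.118) and did not pass. The summed level of 6 cortex and striatum markers, with Drd1, Adora2a and Ppp1r1b among them, ran from 56.8 to 130.3 CPM with FGF1 and from 75.4 to 195.5 CPM in mice labelled non-diabetic. None of the 6 passed or was at 0, their median log2 fold change was -0.77, and their part in the Scn4b result was not tested.

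Scn1a was 302 through 347 to 367 CPM with FGF1 on Day 5 and 389 through 394 to 449 CPM in mice labelled non-diabetic, so that no value overlapped. It was the only one of the 34 genes with every FGF1-treated mouse below every such mouse, where 1.55% of all genes were so separated. The exact permutation p was 8.74e-05, the smallest that 11440 regroupings can give, while the fit across all genes gave a log2 fold change of -0.23 (SE 0.12, adjusted p = 0.327). Mice labelled diabetic ran from 344 through 399 to 479.8 CPM and overlapped with FGF1-treated mice.

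Against mice labelled diabetic, Cacnb2 alone of the 34 passed on Day 5, where 9.21% of all genes did. It ran from 107 through 121 to 129 CPM with FGF1 and from 126 through 136 to 150.0 CPM in mice labelled diabetic, with 8 of 9 FGF1-treated mice below all of them and a log2 fold change of -0.20 (SE 0.06, adjusted p = 0.0274, exact permutation p = 0.000262). Against mice labelled non-diabetic, at 129 through 133 to 143 CPM, it was -0.17 (SE 0.06, adjusted p = 0.105). These comparisons share the FGF1-treated mice. Cacna1d, lower on Day 1, was at 0.11 (adjusted p = 0.304) on Day 5 against mice labelled non-diabetic.

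The Day 5 calls rested on few genes near the threshold, and the number moved from 0 to 5 against mice labelled non-diabetic with the fit. With each day fitted alone Cacnb2, Cacng3, Scn1a and Scn4b passed, where 20.9% of all genes did. The 5 calls came with quality weights on the samples, where 24.1% of all genes passed. With at least 10 counts in every library, or without the 2 deepest FGF1-treated libraries, Scn4b did not pass and no other channel gene did. Against mice labelled diabetic the number reached 7 with quality weights, 4 of them higher, and 9 with each day alone, 3 of them higher, where 33.0% and 30.8% of all genes passed. Over all 34 genes the median log2 fold change was -0.06 and 25 were below 0, with a median over all genes of -0.01, and pores were at -0.04 and accessory genes at -0.10. Neuron markers summed to 5501.3 to 6032.5 CPM with FGF1 and 5848.1 to 6155.4 CPM in mice labelled non-diabetic, and none of the 10 passed. Glial markers rose, with 5 of 8 for astrocytes (5071.5 to 5635.5 CPM against 4526.1 to 4714.9 CPM), 4 of 9 for oligodendrocyte precursors (481.5 to 592.4 CPM against 334.3 to 382.3 CPM), 3 of 7 for mature oligodendrocytes (6044.3 to 6921.1 CPM against 4447.7 to 5889.6 CPM) and 5 of 8 for microglia (317.7 to 390.9 CPM against 246.9 to 411.5 CPM). Of all genes 3.25% rose and 1.40% fell. None of these marker lists had a marker that fell, and their part in the Day 5 results for Scn4b, Cacnb2 and Scn1a was not tested. Of the sodium channel partners 1 of 17 passed, Nfasc, which anchors sodium channels at the axon initial segment, at 0.34 (SE 0.06, adjusted p = 0.000211), and none of 20 calcium channel partners did.

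The vehicle groups of Day 5, labelled diabetic and non-diabetic, did not separate in any channel gene. By edgeR 0.0% of all genes and 0 of 34 channel genes were called. At an unadjusted p under 0.05 there were 193 genes and 0 channel genes, DESeq2 and limma after quantile normalization called 0 genes, and limma with sample quality weights called 1 gene, not of this family.

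On Day 42, edgeR called 0 of the 34 genes and 0.0% of all genes between FGF1 and vehicle, and DESeq2 and both limma fits called 0. Without FGF1-treated replicate 1 of that day 31 genes were called, without replicate 2 there was 1, and with thinned libraries there were 4, none of them a channel gene. At an unadjusted p under 0.05 there were 776 of 14221 genes, and 2 of the 34 channel genes. Cacna1i, a T type pore, was 49.3, 50.5, 52.8, 64.3 and 67.4 CPM with FGF1 and 41.1, 44.4, 44.5, 49.1 and 50.3 CPM with vehicle, for a log2 fold change of 0.31 (SE 0.09, adjusted p = 0.405, exact permutation p = 0.0159). Cacng3 was 23.6, 29.9, 30.1, 30.7 and 66.0 CPM with FGF1 and 22.7, 25.1, 25.5, 27.7 and 27.9 CPM with vehicle, at 0.48 (SE 0.15, adjusted p = 0.446, exact permutation p = 0.0873). The value of 66.0 CPM is that of replicate 5, the library with the high cortex and striatum markers, which also had the highest Scn4b of the day at 202 CPM, where the other 9 mice had 30.9 to 120.1 CPM. Without this library the log2 fold change of Cacng3 was 0.15 and that of Scn4b fell from 0.45 to 0.09. The part of those markers was not tested.

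Members that fell on Day 1 did not pass on Day 42. Cacnb2 was 85.7, 90.5, 102, 118 and 119 CPM with FGF1 and 91.6, 95.6, 96.0, 111 and 119 CPM with vehicle, Cacna2d1 was 259, 266, 269, 324 and 338 CPM and 192, 247, 315, 336 and 408 CPM, and in both the groups overlapped. The median log2 fold change over the 34 genes was 0.03 and over all genes -0.01. For Scn1a the spread between vehicle-treated mice was wide on this day, at 193, 313, 388, 434 and 465 CPM.

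The FGF1 effect differed between Day 5 and Day 1 for 11 of 34 channel genes, where it did for 26.6% of all genes. The difference is the log2 fold change on Day 5 less that on Day 1, and it was positive for 5 genes and negative for 6. Cacna2d4 led at 1.17 (adjusted p = 0.00169), with Cacna2d1 at 0.61, Cacna1d at 0.37 and Cacna1b at 0.22 among genes that had fallen on Day 1. Scn11a, at -0.94, and Cacng8, at -0.76, had risen. Over 13 alternatives the difference for Scn11a ran from -1.26 to -0.41, and its call was lost under 4 of them. Without vehicle replicate 2 of Day 1, 5 of the 34 and 20.4% of all genes differed, and Cacna2d1, Cacng8, Cacnb1, Cacng3, Cacna1b and Scn7a were not among the 5.

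Between Day 42 and Day 1 the effect differed for 5 channel genes, against 25.5% of all genes, all with a positive difference. They were Cacna2d4 at 1.08 (adjusted p = 0.00594), Cacna2d1 at 0.55, Cacnb2 at 0.39, Scn3b at 0.36 and Cacna1d at 0.25. Cacna2d1 was no longer called without vehicle replicate 2 of Day 1, FGF1-treated replicate 1 or 4 of Day 42, or vehicle replicate 2 or 5 of Day 42. Cacna1d was not without vehicle replicate 1 of Day 1, FGF1-treated replicate 1, 3 or 4 of Day 42, or vehicle replicate 2 or 4 of Day 42. Between Day 42 and Day 5 it differed for Cacng3 alone, at 0.79 (adjusted p = 0.0414), where 0.942% of all genes differed, and without FGF1-treated replicate 5 of Day 42, or without vehicle replicate 1, 3 or 4 of that day, no channel gene did.

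Vehicle levels were also set side by side across days. Scn4b had means of 14.3, 54.9 and 77.9 CPM in vehicle-treated mice of Days 1, 5 (labelled non-diabetic) and 42, a ratio of highest to lowest of 5.44. Scn1a had 134, 405 and 358 CPM (3.01), Cacng2, the founding AMPA receptor partner of its family, 83.0, 32.5 and 91.9 CPM (2.82), and Cacng7 92.9, 45.5 and 115 CPM (2.52). At the other end Cacnb3 had 75.9, 68.4 and 68.6 CPM, a ratio of 1.11. Sodium pores were thus lowest on Day 1 for Scn1a, Scn2a and Scn3a, and gamma genes lowest on Day 5 for Cacng2, Cacng4 and Cacng7. The ratio of summed accessory to pore levels per kilobase was 2.68 ± 0.28 (SD, n = 4) on Day 1, 1.76 ± 0.10 (n = 7) on Day 5 and 2.33 ± 0.35 (n = 5) on Day 42. Summed hypothalamus markers ran from 1059.6 to 1472.1, from 425.0 to 658.2 and from 787.9 to 1238.6 CPM, and summed thalamus markers from 459.6 to 614.4, from 623.3 to 964.5 and from 691.6 to 2159.8 CPM. Day, preparation and the tissue taken cannot be told apart here, and no test was made across days for vehicle alone.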

How the data were processed

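Hypothalamic mRNA was sequenced from 47 Lep ob/ob mice with a strand-specific kit. The authors aligned the reads with STAR and deposited the read counts of each gene, unscaled whole numbers. Their methods name the mouse reference genome but give its build as GRCh38, which is the name of a human build. The program that counted the reads is not given in the sources used here. Groups follow the labels, and replicates were numbered in accession order, as names. Gene positions are from GENCODE vM21 (GRCm38), in which all 34 channel genes were found, and promoters are from RefSeq.

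Counts were scaled by TMM and fitted with edgeR 4.0.16 (R 4.3.3) with 1 mean for each of the 7 groups. No gene was removed by the filter on low counts, and each had at least 307 counts in all. Contrasts were tested by the quasi-likelihood F test with Benjamini-Hochberg adjustment over 14221 genes, and all adjusted p-values in the text are from it. A gene was called at an adjusted p under 0.05, and as a DEG with an absolute log2 fold change above 0.5 too. Exact permutation tests were two-sided, on log2(CPM + 0.5). Gene lists are described by counts and medians.

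The rule on symbols uses no measured value, but this family and the lists were chosen with earlier results of these data known. Genes described by mouse were those called in a comparison of FGF1 with vehicle, the highest of each subunit class per kilobase and those nearest the threshold on Day 1. Cacna1i and Cacng3 are also given by mouse on Day 42, where their unadjusted p was under 0.05. Partners were named when they were DEGs on Day 1 or called on Day 5. Alternatives were DESeq2 1.42.0 and its size factors, limma 3.58.1 after quantile normalization or with quality weights, other filters, each day alone, merged vehicle groups, mice left out, libraries thinned to 7579695 counts, and length by longest transcript. Some genes counted among the 34 are not reported here by name. The scripts were tested on simulated data. Figures were drawn with matplotlib 3.10.9. Genes near 1 CPM rest on few counts in the shallowest library, and what limits the calls was not tested.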

Additional observations from a re-analysis of the deposited data

Results flagged for a closer look

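Single mice stood apart in 11 of 224 sets of 1 gene in 1 group (4.91%), by the gap to the nearest other mouse in proportion to the range of the group, and chance gives about 1 in 20. On Day 1 these were Scn1a at 152 CPM in FGF1-treated replicate 1 (next 113 CPM), Cacna2d2 at 130.5 CPM in FGF1-treated replicate 10 (next 165 CPM), and Cacnb4 at 104 CPM and Scn2a at 286 CPM in vehicle-treated replicate 2 (next 73.9 and 225 CPM). On Day 5 FGF1-treated mice gave Cacna1i at 34.4 CPM in replicate 1, Cacna2d1 at 285 CPM in replicate 4, and Cacnb4 at 203 CPM in replicate 9. Mice labelled non-diabetic gave Cacna2d1 at 231 CPM in replicate 6, and Scn1a at 449 CPM in replicate 1. On Day 42 Cacng3 stood at 66.0 CPM in FGF1-treated replicate 5 and Cacng8 at 12.51 CPM in vehicle-treated replicate 2.

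The FGF1 effect differed between Day 5 and Day 1 for 11 of 34 channel genes (26.6% of all genes), between Day 42 and Day 1 for 5 (25.5%) and between Day 42 and Day 5 for 1 (0.942%). On the log2 scale, the difference of Day 5 from Day 1 was 1.17 for Cacna2d4, 0.70 for Scn7a, 0.61 for Cacna2d1, 0.37 for Cacna1d and 0.22 for Cacna1b. It was -0.94 for Scn11a, -0.76 for Cacng8, -0.60 for Cacng3, -0.46 for Cacnb1, -0.41 for Cacng5 and -0.36 for Cacna2d3. Cacng3 and Cacna2d3 were not called in the comparison of FGF1 with vehicle on Day 1 or Day 5, at 0.29 and 0.19 on Day 1 and -0.32 and -0.18 on Day 5. The difference of Day 42 from Day 1 was 1.08 for Cacna2d4, 0.55 for Cacna2d1, 0.39 for Cacnb2, 0.36 for Scn3b and 0.25 for Cacna1d, and that of Day 42 from Day 5 was 0.79 for Cacng3. Adjusted p-values by edgeR ran from 0.000742 (Cacna1d, Day 5 from Day 1) to 0.0421 (Scn7a).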

How the results depend on the processing

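Of 505 fold changes under an alternative, all of genes called in that comparison by the main fit, none changed sign, 430 still passed and 75 no longer did. Genes not called could change sign. Without vehicle replicate 2 of Day 1, Cacna1a went from 0.05 to -0.10 and Cacna1g from 0.03 to -0.14 on that day. The number of channel genes called on Day 1 was 16 and 4 by the DEG threshold, and ran from 11 to 17 with vehicle-treated mice of that day, or the FGF1-treated mouse of lowest depth, left out in turn. On Day 5 against mice labelled non-diabetic, 1 was called, and 5 with quality weights (24.1% of all genes), 0 with at least 10 counts in every library, 4 with each day alone (20.9%), 2 with merged vehicle groups (12.0%), 0 without the 2 deepest libraries and 0 with thinned libraries. Against mice labelled diabetic 1 was called, and 2 after quantile normalization, 7 with quality weights (33.0%), 9 with each day alone (30.8%), 2 without the 2 deepest libraries and 0 by the DEG threshold. For Day 5 from Day 1, 11 were called, with 5 to 14 when a mouse was left out, 7 with thinned libraries and 6 by the DEG threshold. For Day 42 from Day 1, 5 were called, with 8 by DESeq2, 2 with quality weights, 3 to 7 when a mouse was left out and 2 by the DEG threshold. For Day 42 from Day 5, 1 was called, with 0 after quantile normalization, with quality weights, without the 2 deepest libraries and with thinned libraries, and 0 to 1 when a mouse was left out. The cause of these shifts was not tested. No paired analysis was possible because the labels give no replicate numbers and each mouse gave 1 library. Merged vehicle groups and a left-out mouse apply only to comparisons that hold those mice. DESeq2 size factors moved the median of all genes on Day 1 from 0.01 to -0.04. Scn11a and Cacna2d4 had as few as 1 and 5 counts in the shallowest library, FGF1-treated replicate 1 of Day 1. Without it their log2 fold changes on Day 1 were 0.64 (adjusted p = 0.0151) and -1.05 (adjusted p = 5.66e-05).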
